A study of Homo sapiens with 4 samples.

Results

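The 10 genes described here encode checkpoint ligands that tumour cells present to immune cells, and surface proteins that act beside them. They were taken as a written list of symbols, matched to the Entrez identifiers of the deposited tables, and all 10 were found among the 16813 genes listed in at least 1 library. The list holds the PD-1 ligands CD274 (PD-L1) and PDCD1LG2 (PD-L2), CMTM6, CD276 (B7-H3), the nectin-like ligands PVR (CD155) and NECTIN2 (CD112), CD47, the adenosine-producing enzymes NT5E (CD73) and ENTPD1 (CD39), and LGALS9 (galectin-9). Of these, 8 passed the filter on low counts and were tested, while ENTPD1 and LGALS9 did not pass it.

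Checkpoint ligands bind inhibitory receptors on T cells, natural killer cells or macrophages and dampen their attack on the cell that carries the ligand. PD-L1 is the target of antibodies used in lung cancer, its transcription is induced by interferon gamma through JAK kinases, and EGFR signalling is among the other inputs known to raise it. The amount of such a protein at the surface also depends on its stability and recycling, which RNA levels do not show.

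RNA sequencing compared PC9, a human lung adenocarcinoma line with an activating EGFR mutation, with PC9OR, a derivative resistant to osimertinib, an EGFR kinase inhibitor. Each line gave 2 libraries that the labels call biological replicates, 4 in all. PC9 is labelled as the control and PC9OR as osimertinib resistant, both carry the genotype label WT, and both were grown in RPMI 1640 with 10% fetal bovine serum. PC9OR is a single resistant line, the cultures hold no immune cells by design, and whether PC9OR was grown with osimertinib before RNA was taken is not given in the sources used here.

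The expected counts (estimated reads per gene, not normalized) summed to between 23201307 and 32203998 per library. A count of 3 in a library, taken as the smallest readable value, corresponded to between 0.0936 and 0.128 CPM (counts scaled to a common library size after TMM normalization), which covers counting error only. Spread within a line, as edgeR's biological coefficient of variation, was 0.241 for PC9 and 0.104 for PC9OR. All 8 epithelial markers were detected, and KRT8 and KRT18, keratins of simple epithelia, were the most abundant of them. EPCAM was at 334, 334, 319 and 343 CPM in PC9 replicates 1 and 2 and PC9OR replicates 1 and 2. The list as a whole was not level between the lines. By the test described below, 5 of the 8 were called higher in PC9OR, 2 lower and 1 neither. Over all tested genes, 15.6% were called higher and 20.8% lower. Of 15 immune cell markers, CD3E, CD3G, CD2, MS4A1 and NKG7 had 0 counts in every library, and PTPRC, the pan-leukocyte marker, had 1 count in 1 library. The summed FPKM of that list was 5.97 to 7.80 in PC9 and 2.94 to 3.20 in PC9OR, led by CD68 and LYZ. That of 10 fibroblast and endothelial markers was 4.33 to 6.73 in PC9 and 1.06 to 1.10 in PC9OR, most of it CDH5. The part of these markers in the results below was not tested.

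FPKM, which scales counts by transcript length, placed the genes in an order within each line. In PC9 the order from the highest was PVR, CD276, NT5E, NECTIN2, CMTM6, CD47, CD274, PDCD1LG2, LGALS9 and ENTPD1. The replicate ranges overlapped for NT5E with NECTIN2, for CD47 with CD274 and for LGALS9 with ENTPD1. In PC9OR the order was NT5E, PVR, NECTIN2, CMTM6, CD276, CD47, CD274, PDCD1LG2, LGALS9 and ENTPD1. There the replicate ranges overlapped for PVR with NECTIN2 and for CMTM6 with CD276. PVR went from the first place at 49.7 ± 6.72 FPKM (SD, n = 2) to the second at 26.6 ± 4.09. NT5E went from the third at 26.0 ± 1.34 to the first at 31.1 ± 1.70. The 10 genes together summed to 172 and 165 FPKM in PC9 and to 142 and 130 FPKM in PC9OR. Over all listed genes, FPKM summed to 307648 and 357089 in PC9 and to 413521 and 410202 in PC9OR. FPKM values are therefore not on a common scale across the libraries, and changes between the lines were tested on counts.

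**Figure D1:**
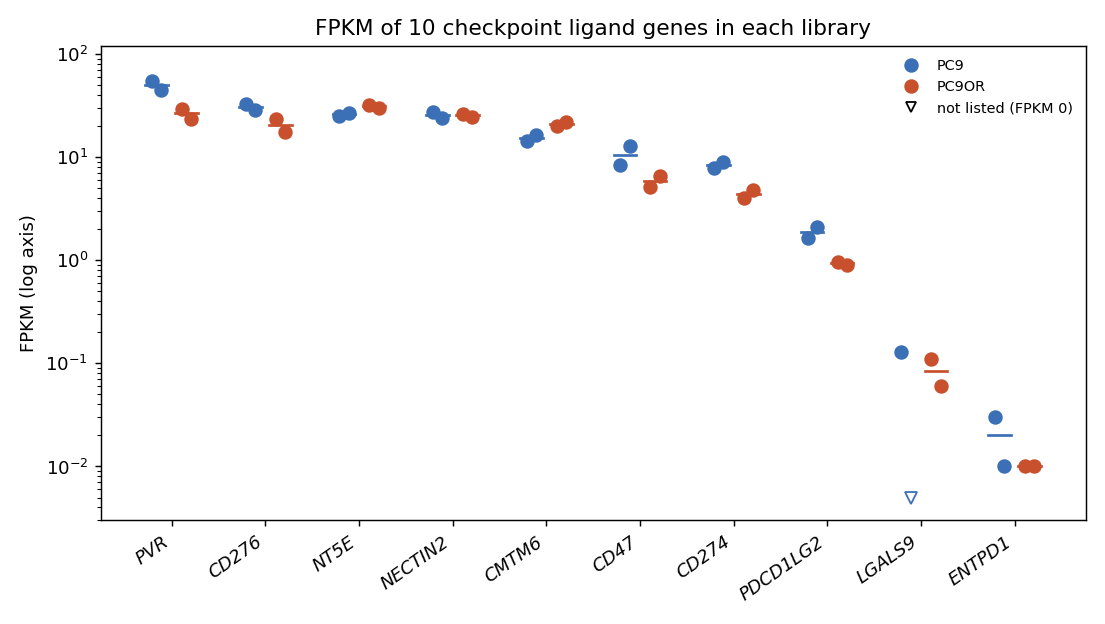
FPKM (log axis) of the 10 genes in the 4 libraries, PC9 in blue and PC9OR in red, with a bar at the mean where both replicates were above 0. An open triangle marks LGALS9 in PC9 replicate 2, which was not listed and is drawn at the foot of the plot, so LGALS9 has no bar in PC9. PVR spans 44.9 to 54.4 in PC9 and 23.7 to 29.5 in PC9OR, while ENTPD1 and LGALS9 stay at or under 0.13 in every library.

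CD274, PDCD1LG2 and PVR fell in PC9OR, each by less than 2-fold, and CMTM6 rose. CD276, CD47, NT5E and NECTIN2 did not pass the test. That is 1 gene higher and 3 lower of 8, by edgeR's quasi-likelihood test at a Benjamini-Hochberg adjusted p under 0.05 over all 13148 genes tested. The background was high: 15.6% of all tested genes were called higher in PC9OR and 20.8% lower. The median log2 fold change (PC9OR minus PC9) of the 8 genes was -0.66, against 0.01 over all tested genes. With offsets for transcript length the medians were -0.46 and 0.06, and after both length and GC content had offsets they were -0.27 and 0.05. None of the 8 changed by more than 2-fold, which 23.5% of tested genes did by fold change alone, in either direction. Both PC9OR libraries lay below both PC9 libraries for 5 of the 8 (CD274, PDCD1LG2, CD276, PVR, CD47) and above them for 2 (NT5E, CMTM6), where 38.2% of all tested genes lay below and 39.6% above.

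Every one of the 4 calls was lost when either PC9OR library was left out, which leaves 1 PC9OR library whose spread is assumed to equal that of the PC9 pair. Over all genes, calls in either direction then came to 14% of those tested without PC9OR replicate 1 and 13.5% without replicate 2. In bulk RNA of this kind, fewer cells that express a gene and less RNA per cell cannot be told apart.

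**Figure D2:**
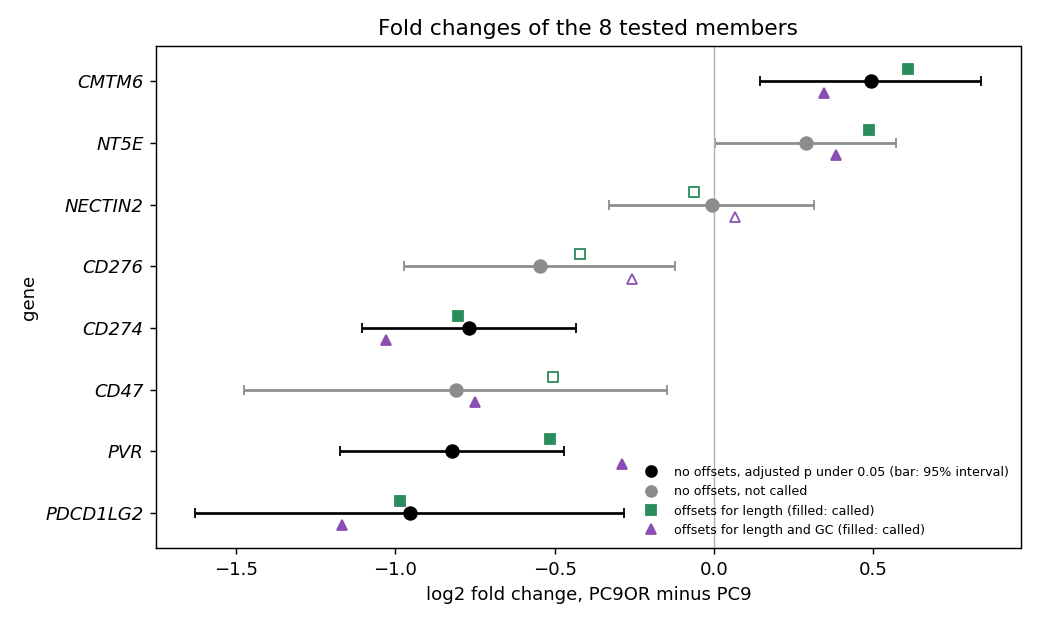
Log2 fold change (PC9OR minus PC9) of the 8 tested genes, with circles for the test without offsets and bars for its 95% interval. Circles are black where the adjusted p was under 0.05 and grey where it was not. Squares are after offsets for transcript length and triangles after offsets for length and GC content, both filled where the adjusted p was under 0.05 and open where not. CD274, PDCD1LG2 and PVR stay below 0 and CMTM6 above 0 in all 3, and NECTIN2 lies within 0.07 of 0.

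The promoters of 3 of the 4 genes that changed are shown, since motif content is a feature that the choice of genes did not use. Each runs from 250 bases before to 50 bases after the RefSeq start of the gene on GRCh38.p14, 5′ to 3′ on the gene's strand, which is a later build than the GRCh37 of the deposited tables. Capitals mark matches on either strand to an interferon-stimulated response element (ISRE, GAAANNGAAA), a STAT site (GAS, TTCNNNGAA), an AP-1 site (TGANTCA) or a GC box (GGGCGG). They lie at chr9:5450292-5450591 on the plus strand for CD274, chr19:44643660-44643959 on the plus strand for PVR and chr3:32502803-32503102 on the minus strand for CMTM6.
CD274: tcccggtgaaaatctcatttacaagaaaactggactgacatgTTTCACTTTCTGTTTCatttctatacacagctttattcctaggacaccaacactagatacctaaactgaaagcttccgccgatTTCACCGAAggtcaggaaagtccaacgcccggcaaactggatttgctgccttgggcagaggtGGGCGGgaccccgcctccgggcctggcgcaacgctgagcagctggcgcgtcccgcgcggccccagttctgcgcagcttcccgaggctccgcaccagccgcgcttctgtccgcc
PVR: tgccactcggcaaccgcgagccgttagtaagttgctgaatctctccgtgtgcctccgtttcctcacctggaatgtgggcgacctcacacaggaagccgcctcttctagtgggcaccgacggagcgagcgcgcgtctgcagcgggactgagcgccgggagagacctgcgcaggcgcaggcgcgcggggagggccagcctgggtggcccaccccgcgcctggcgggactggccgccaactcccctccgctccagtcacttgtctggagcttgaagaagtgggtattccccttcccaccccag
CMTM6: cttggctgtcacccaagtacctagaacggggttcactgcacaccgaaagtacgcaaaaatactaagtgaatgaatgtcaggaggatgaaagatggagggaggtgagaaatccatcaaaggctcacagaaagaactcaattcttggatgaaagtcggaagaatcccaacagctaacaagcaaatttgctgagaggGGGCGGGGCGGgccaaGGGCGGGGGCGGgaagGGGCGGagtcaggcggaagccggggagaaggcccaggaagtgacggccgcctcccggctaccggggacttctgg

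The CD274 promoter held 2 ISRE matches on the minus strand that overlap each other, beginning 208 and 202 bases before the start site. It also held 1 GAS match 125 bases before it and 1 GC box. The PVR promoter held none of the 4 motifs in this window, and the CMTM6 promoter held 5 GC boxes, some of which overlap, and none of the other 3. Among all 35116 RefSeq promoters of this length, 3.57% held an ISRE, 7.66% a GAS match, 7.71% an AP-1 match and 45.0% a GC box. Of the 10 genes, 9 had a promoter entry, the exception being PDCD1LG2, and an ISRE was found in 2, CD274 and LGALS9. In LGALS9 the match began 9 bases before the start site. A match to such letters is a description and does not show that a factor binds there.

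CD274 encodes PD-L1, the main ligand of the T cell receptor PD-1. It is Entrez gene 29126, on chromosome 9 of GRCh37 from 5450503 to 5470566, plus strand, with 7 exons in its canonical transcript. Its level was 25.5 and 26.8 CPM in PC9 replicates 1 and 2 and 15.0 and 15.7 CPM in PC9OR replicates 1 and 2. The groups did not overlap in CPM or in FPKM, which was 7.81 and 9.01 in PC9 and 4.02 and 4.81 in PC9OR. The spread within each line rests on 2 libraries. The means were 26.2 ± 0.860 and 15.4 ± 0.480 CPM (SD, n = 2). CD274 fell by 0.77 on the log2 scale (SE 0.131, 95% interval -1.10 to -0.43), with an edgeR adjusted p of 0.0143. Without PC9OR replicate 1 the adjusted p was 0.128 and without PC9OR replicate 2 it was 0.108, with log2 fold changes of -0.74 and -0.80.

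PDCD1LG2 encodes PD-L2, the other ligand of PD-1, and lies downstream of CD274 on the same strand, from 5510531 to 5571282 (Entrez 80380, 7 exons). Its level was 5.33 and 6.90 CPM in PC9 and 3.22 and 3.09 CPM in PC9OR, so it too did not overlap between the lines. PDCD1LG2 fell by 0.95 on the log2 scale (SE 0.263, 95% interval -1.63 to -0.28, adjusted p 0.0436), the lowest value of the 8 genes. Leaving out PC9OR replicate 1 or 2 gave adjusted p-values of 0.212 and 0.248. The FPKM of CD274 was 4.76 and 4.33 times that of PDCD1LG2 in PC9 and 4.14 and 5.29 times in PC9OR, so the ratio overlapped between the lines.

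CMTM6, a MARVEL-domain protein that holds PD-L1 at the cell surface and protects it from degradation, moved the other way. It is Entrez gene 54918 on chromosome 3, from 32522804 to 32544344 on the minus strand, with 4 exons. Its level was 65.8 and 77.2 CPM in PC9 and 94.9 and 106 CPM in PC9OR, without overlap. CMTM6 rose by 0.49 on the log2 scale (SE 0.136, 95% interval 0.15 to 0.84, adjusted p 0.0436). The call was lost without PC9OR replicate 1 (adjusted p 0.184), without PC9OR replicate 2 (0.355) and, narrowly, with no filter on low counts (0.0503). The FPKM of CMTM6 was 1.83 and 1.82 times that of CD274 in PC9, and 5.00 and 4.60 times in PC9OR. Every PC9OR ratio lay above every PC9 ratio, which follows from CMTM6 being higher and CD274 lower in both PC9OR libraries by FPKM. With 2 libraries against 2, a two-sided exact permutation test cannot go below p = 0.333.

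CD276 encodes B7-H3, a member of the B7 family found on many solid tumours (Entrez 80381, chromosome 15 from 73976307 to 74006855, plus strand, 10 exons). Its level was 152 and 135 CPM in PC9 and 112 and 85.1 CPM in PC9OR. The lines did not overlap, but the PC9OR replicates stood further apart than the lowest PC9 and the highest PC9OR library. The log2 fold change was -0.55 (SE 0.166, 95% interval -0.97 to -0.12), and the edgeR adjusted p of 0.0553 missed the threshold. After offsets for length and GC content it was -0.26 (adjusted p 0.149).

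PVR encodes CD155, the poliovirus receptor, which binds the inhibitory receptor TIGIT and the activating receptor DNAM-1 (Entrez 5817, chromosome 19 from 45147098 to 45169430, plus strand, 8 exons). Its level was 374 and 318 CPM in PC9 and 208 and 184 CPM in PC9OR, without overlap. PVR fell by 0.82 on the log2 scale (SE 0.137, 95% interval -1.17 to -0.47, adjusted p 0.0138). After offsets for transcript length and GC content the log2 fold change was -0.29, with an adjusted p of 0.0431, and without PC9OR replicate 1 or 2 the adjusted p was 0.0645 or 0.124. PVR held 31.6% and 27.2% of the summed FPKM of the 10 genes in PC9, and 20.7% and 18.2% in PC9OR.

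NECTIN2 encodes CD112, a relative of PVR on the same arm of chromosome 19, from 45349432 to 45392480 (Entrez 5819, plus strand, 9 exons). It binds TIGIT less tightly than CD155 does, and it also binds PVRIG. Its level was 88.3 and 75.8 CPM in PC9 and 83.8 and 79.4 CPM in PC9OR, and both PC9OR libraries lay between the PC9 libraries. The log2 fold change was -0.01 with a 95% interval of -0.33 to 0.31 (adjusted p 0.969), and changes of either sign up to those bounds are not excluded by it. The FPKM of PVR was 1.97 and 1.86 times that of NECTIN2 in PC9, and 1.11 and 0.958 times in PC9OR.

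CD47 encodes the signal that tells macrophages, through SIRPA, not to engulf a cell (Entrez 961, chromosome 3 from 107761938 to 107810709, minus strand, 11 exons). Its level was 61.5 and 95.5 CPM in PC9 and 38.5 and 51.0 CPM in PC9OR. The lines did not overlap, yet PC9 replicate 2 stood far above PC9 replicate 1. The log2 fold change was -0.81 (SE 0.260, 95% interval -1.48 to -0.15) and the adjusted p 0.0621. The value rested on which PC9 library was kept: it was -1.10 without PC9 replicate 1 (adjusted p 0.0093, called) and -0.48 without PC9 replicate 2 (0.0782). With offsets for transcript length it was -0.51 (0.205), and -0.75 (0.0497, called) when GC content was added to them.

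NT5E encodes CD73, which turns AMP into adenosine, a suppressor of T cells (Entrez 4907, chromosome 6 from 86159302 to 86205509, plus strand, 9 exons). Its level was 140 and 154 CPM in PC9 and 185 and 174 CPM in PC9OR. PC9OR lay above PC9 in every pairing of libraries, with a log2 fold change of 0.29 (SE 0.111, 95% interval 0.00 to 0.57) that missed the threshold at an adjusted p of 0.0952. With offsets for transcript length it was 0.49, with an adjusted p of 0.0256. NT5E held 14.6% and 16.4% of the summed FPKM of the 10 genes in PC9 and 22.7% and 22.9% in PC9OR.

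ENTPD1 encodes CD39, which produces the AMP that CD73 uses (chromosome 10 from 97471536 to 97637023). It had 11.3 and 6.84 expected counts in PC9 and 5.95 and 5.67 in PC9OR, or 0.01 to 0.03 FPKM, so CD73 RNA was abundant in libraries where CD39 RNA was near the limit of detection. LGALS9, a galectin that binds TIM-3 (chromosome 17 from 25956824 to 25976586), had 7 and 0 counts in PC9 and 7 and 4 in PC9OR. Pooled per line, ENTPD1 was 1.84 times as high in PC9 as in PC9OR with an exact 95% counting interval of 0.837 to 4.18, and LGALS9 was 0.779 times as high with an interval of 0.256 to 2.2. Neither difference was detectable at this depth. The near-identical copies of LGALS9, LGALS9B, with 0, 0, 8.16 and 5.21 expected counts in the same order of libraries, and LGALS9C, with 1.17, 11.4, 21.2 and 14.4, could share reads with LGALS9, so the division among the 3 is uncertain.

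The log2 fold change moved with transcript length across all tested genes, with a rank correlation of -0.34 over genes, which share the same 4 libraries. Between the PC9 replicates the same correlation was -0.38 (replicate 2 minus 1), and between the PC9OR replicates it was -0.01. The median log2 fold change went from 0.53 in the bin of the shortest genes to -0.58 in that of the longest. CD274 (2410 bases) and PDCD1LG2 (2418 bases) sat in a bin with a median of 0.10, and fell. PVR (5067 bases) sat in a bin with a median of -0.18, and CD47 (5303 bases) in one with a median of -0.29. CMTM6 (3366 bases) and NT5E (4049 bases) sat in bins with medians of -0.04 and -0.09.

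**Figure D3:**
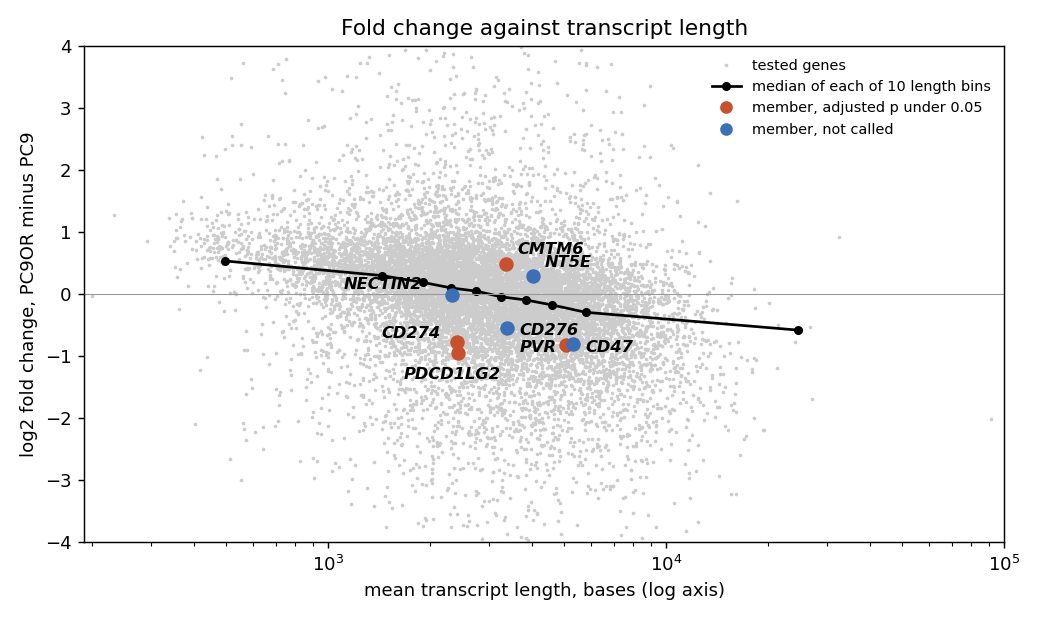
Log2 fold change (PC9OR minus PC9) of all tested genes against mean transcript length in bases (log axis), with the median of each of 10 equal bins drawn at the middle of its range on that axis and the 8 genes marked, called ones in red. The bin medians run from 0.53 to -0.58, and genes beyond 4 in either direction lie outside the frame.

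With an offset for length in each library, 20.6% of all tested genes were called higher and 18.8% lower. Among the 8 genes, CMTM6 (0.61, adjusted p 0.0210) and NT5E were then called higher, and CD274 (-0.80, adjusted p 0.0076), PDCD1LG2 (-0.99, 0.0315) and PVR (-0.52, 0.0154) lower. CD276 (-0.42, 0.0703) and CD47 (-0.51, 0.205) were not called.

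CD274 and PDCD1LG2 lie next to each other on 9p24.1, a segment that is amplified or rearranged as a block in some lymphomas, so the genes around them were read for a shared shift. Of 18 neighbours written down, 13 were tested, and 3 rose while 1 fell, with a median log2 fold change of 0.21. Counts in this list and those below stand beside 15.6% called higher and 20.8% lower over all tested genes. PLGRKT, the nearest tested protein-coding neighbour on the lower-coordinate side, was at 11.0 and 15.0 CPM in PC9 and 26.8 and 28.2 CPM in PC9OR (log2 fold change 1.08, adjusted p 0.0158). ERMP1 rose by 0.90 (adjusted p 0.0088) and RANBP6 by 0.65 (0.0240). RIC1, the next tested gene on the other side, was at -0.26 (0.140). JAK2, the kinase that interferon gamma receptors use, was at 12.6 and 9.57 CPM in PC9 and 8.18 and 9.66 CPM in PC9OR, with a log2 fold change of -0.31 and an adjusted p of 0.308. SPATA6L fell (adjusted p 0.0279), from 24 and 16 counts to 2 and 0. Of the 13, no other was called lower. Whether the segment changed as a block was not tested.

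**Figure D4:**
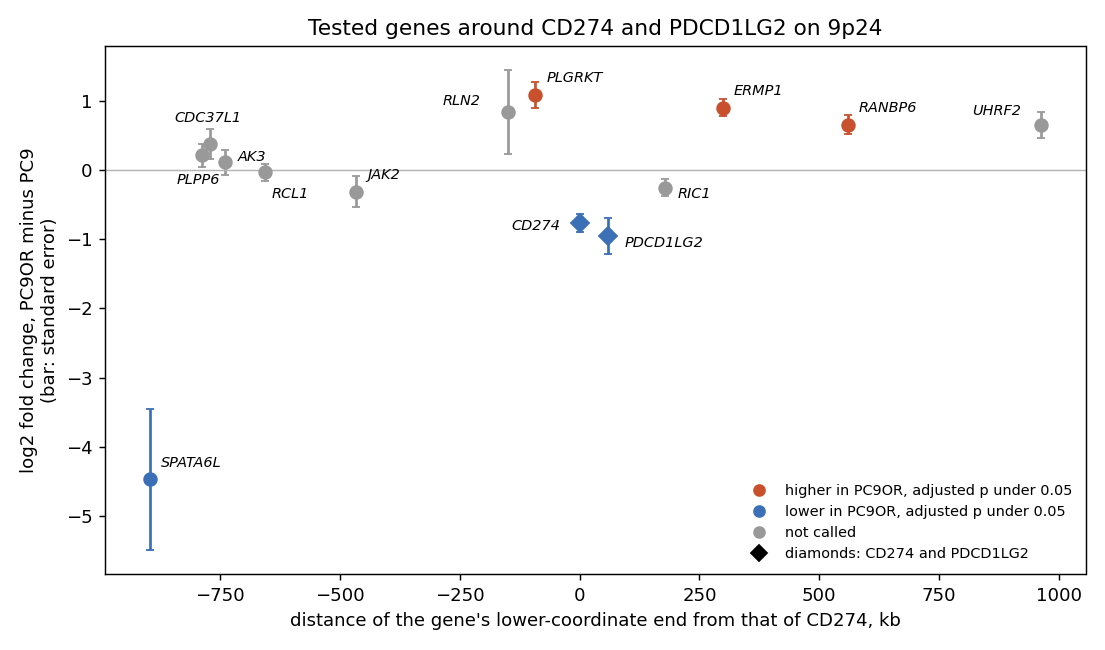
Log2 fold change (PC9OR minus PC9, bars one standard error) of the tested genes around CD274 by distance in kb between lower-coordinate ends, with CD274 and PDCD1LG2 as diamonds and KIAA2026, which had no position in the annotation, left out. The diamonds lie at -0.77 and -0.95, PLGRKT at 1.08 and RIC1 at -0.26.

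The interferon gamma route to PD-L1 was represented by 13 genes, all tested, of which 0 rose and 5 fell, with a median log2 fold change of -0.39. SOCS3, a feedback inhibitor of JAK kinases, fell from 67.0 and 65.5 CPM to 34.3 and 31.2 CPM (-1.02, adjusted p 0.0070). STAT3, a transcription factor of cytokine signalling, fell by 0.76 (0.0102) and IFNGR1, the ligand-binding receptor chain, by 0.54 (0.0341). The other two were JAK1 (-0.39, adjusted p 0.0486) and PTPN2 (-0.37, 0.0466), a phosphatase that restrains the same kinases. IRF1, a factor that carries the signal to the CD274 promoter, was at -0.56 (0.0578) and did not pass. JAK1, PTPN2 and IRF1 were chosen after their values were seen. The members that fell include activators and inhibitors of the pathway.

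Of 17 genes that act on the PD-L1 protein, 2 rose and 4 fell, with a median of -0.20. GSK3B, a kinase that marks PD-L1 for degradation, fell from 140 and 117 CPM to 50.4 and 54.1 CPM (-1.30, adjusted p 0.0063). CMTM4, which can stand in for CMTM6, fell by 1.09 (0.0082), opposite to CMTM6. GSK3B and CMTM4 have long transcripts of 7084 and 7801 bases, in the bin of length whose median was -0.58. STT3A, a subunit of the enzyme that glycosylates PD-L1, fell by 0.79 (0.0086). SPOP, the adaptor of a ubiquitin ligase that takes PD-L1 as a substrate, rose by 0.52 (0.0277), and COPS5, which removes ubiquitin from PD-L1, rose by 0.50 (0.0381). CUL3, from the same list and chosen after its values were seen, fell by 0.38 (0.0443). Its transcript of 6667 bases also sat in the bin whose median was -0.58.

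Among 15 other B7 and butyrophilin genes, 9 were tested, 1 rose and 3 fell. VSIR (VISTA) rose from 34.0 and 31.7 CPM to 55.8 and 52.9 CPM (0.73, adjusted p 0.0119). NCR3LG1 (B7-H6), a ligand that activates natural killer cells, fell by 2.51 (0.0050), BTN2A2 by 1.92 (0.0114) and ICOSLG, the ligand of ICOS, by 1.46 (0.0186). NCR3LG1 (6382 bases) sat in the bin of length with a median of -0.29. CD80 and CD86, the costimulatory ligands of professional antigen-presenting cells, had 0 counts in every library.

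Of 7 relatives and partners of the nectins, 5 were tested. NECTIN1, another nectin, fell from 128 and 70.7 CPM to 25.1 and 24.7 CPM (-2.00, adjusted p 0.0113), and CADM4, a nectin-like adhesion molecule, rose from 4.61 and 5.10 CPM to 15.0 and 16.5 CPM (1.70, 0.0068). In the list around CD47, 9 of 10 genes were tested, 0 rose and 4 fell, with a median of -0.52. SIRPA, the receptor of CD47, fell by 1.47 (0.0112), its relative SIRPB1 by 3.43 (0.0066). CALR, a signal for engulfment when exposed at the surface, fell by 0.52 (0.0199) and was chosen after its values were seen. QPCT, a glutaminyl cyclase, had 117 and 177 counts in PC9 and 0 and 1 in PC9OR, a pooled ratio of 360 with an exact 95% counting interval of 64.1 to 14266 (adjusted p 0.0048). QPCTL, the related cyclase that modifies CD47 at its binding site for SIRPA, was chosen after its values were seen, with a log2 fold change of 0.44 and an adjusted p of 0.114.

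Adenosine genes beyond NT5E and ENTPD1 numbered 19, of which 14 were tested, 2 rose and 2 fell, with a median of 0.02. ALPP, a placental alkaline phosphatase that can also dephosphorylate AMP, rose from 7.72 and 6.83 CPM to 38.0 and 32.5 CPM (2.28, adjusted p 0.0040), with close copies in the genome that could share its reads. ENTPD6, a relative of ENTPD1, rose by 0.50 (0.0222). The nucleoside transporters SLC28A3 and SLC29A2 fell by 1.70 (0.0216) and 0.58 (0.0305).

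In the galectin list, 5 of 11 genes were tested. LGALS3 (0.75, adjusted p 0.0238) and LGALS1 (0.74, 0.0482) rose, while LGALS8 (-1.14, 0.0072) and LGALS3BP (-0.96, 0.0066), which encodes a galectin-binding glycoprotein, fell. LGALS1 and LGALS3 have short transcripts of 558 and 1000 bases, in the bin of length whose median was 0.53. LGALS8 has a long one of 6231 bases, in the bin with a median of -0.29. In the MARVEL family of CMTM6, 6 of 9 genes were tested, 2 rose and 0 fell. MAL, a raft protein of apical transport, rose from 144 and 168 CPM to 403 and 376 CPM (1.32, 0.0055), and CMTM3 rose by 1.19 (0.0173). Over the 12 related lists, each gene counted once, 110 of 168 genes were tested, 15 rose and 28 fell, with a median of -0.12. Over all tested genes, 15.6% were called higher and 20.8% lower, with a median of 0.01.

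**Figure D5:**
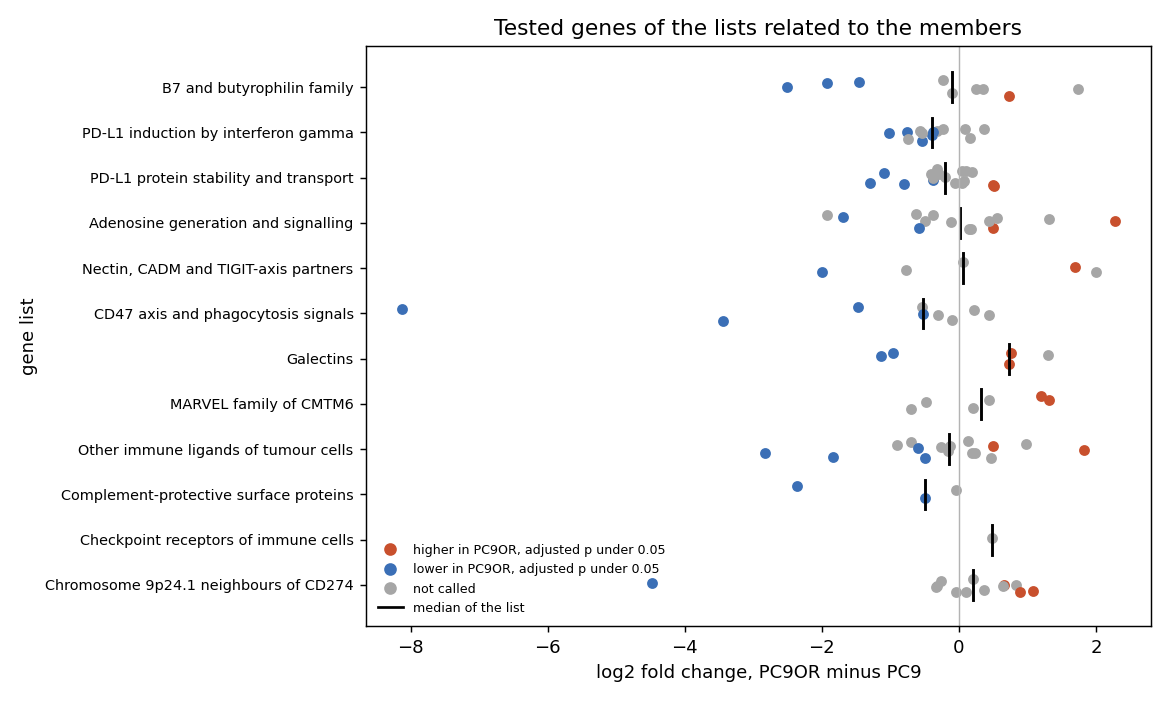
Log2 fold change (PC9OR minus PC9) of each tested gene of the 12 related lists, red where higher and blue where lower at an adjusted p under 0.05, with a black bar at the median of each list. QPCT, at the far left, had 0 and 1 counts in PC9OR, so its place depends on the fitted prior count. The galectin list has the highest median among lists with more than 1 tested gene. Of its 5 tested genes, 2 were called higher and 2 lower.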

How the data were processed

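RNA was sequenced from PC9 and PC9OR cells, 2 biological replicates of each, as labelled. The authors deposited, for every gene of a library, an expected count (an estimated, unnormalized read number), an FPKM value and a transcript length weighted by isoform use. The submitters' processing notes name RSEM 1.2.12, Bowtie2 2.2.5 and GRCh37, and the paper's methods name SOAP for read filtering and DEGseq for this comparison. The expected counts of CMTM6, CD47 and ENTPD1, and of CD276 in 3 libraries, were not whole, so the authors' estimate divided some reads among loci.

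The tables list only genes with counts above 0, and absent genes were given 0. RefSeq symbols were found for 99.7% of the Entrez identifiers, and positions came from the GENCODE annotation lifted to GRCh37. The rounded expected counts went into edgeR 4.0.16 under R 4.3.3 (TMM scaling, filterByExpr, glmQLFit and glmQLFTest, no pairing), which left 13148 genes, and called at a Benjamini-Hochberg adjusted p under 0.05. A p-value sets the difference between the lines against the spread between these libraries, and does not reach to other resistant lines. The scripts were tested on simulated data.

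Alternatives were DESeq2 1.42.0 size factors, library totals, DESeq2's Wald test, limma 3.58.1 on log2(FPKM + 1) and log2(FPKM + 0.1), no filter, at least 10 counts in every library, the study's threshold (more than 2-fold and under 0.001), more than 2-fold and under 0.05, an MA-plot-based model on pooled replicates (rewritten, since DEGseq was not installed), offsets for length and for length and GC content (smooth curves by mgcv 1.9.3), the replicate number as a block with and without length offsets, and leaving out each library. Both 2-fold thresholds were applied to edgeR's adjusted p, not to the q value of DEGseq that the paper used. The quasi-likelihood test was preferred to DEGseq because pooling takes no account of replicates.

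The 10 genes and 15 related lists, 3 of them of cell type markers, were chosen with earlier results of these data known. Named genes are the 10, up to 3 called genes per direction with the largest change from each related list, JAK2, PLGRKT, RIC1 and ERMP1, and the 2 most abundant genes of each marker list. Other genes are said to have been chosen after their values were seen, apart from genes named at or near 0 counts, the copies of LGALS9, KIAA2026 and the marker EPCAM. Results for some single genes are not reported here.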

Additional observations from a re-analysis of the deposited data

How the results depend on the processing

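The 8 tested genes kept the direction of their log2 fold change under the 16 alternatives that give one, except NECTIN2. It was at -0.01 and turned to 0.00021 under the MA-plot-based model, 0.0030 with no filter on low counts and 0.067 once both length and GC content had offsets, and ranged from -0.13 to 0.10 with 1 library left out. The ranges were -1.03 to -0.74 for CD274, -1.17 to -0.56 for PDCD1LG2, -0.95 to -0.29 for PVR, 0.35 to 0.62 for CMTM6, -0.75 to -0.26 for CD276, -1.10 to -0.47 for CD47 and 0.22 to 0.49 for NT5E.

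The number of the 8 called higher, 1, became 2 under the MA-plot-based model, with length offsets, with length and GC offsets and with the block and length offsets, and 0 with no filter and under both 2-fold thresholds. It ranged from 0 to 2 with 1 library left out. The number called lower, 3, became 5 under DESeq2's Wald test, the MA-plot-based model and the block with length offsets, and 0 under both 2-fold thresholds, with a range of 0 to 4 with 1 library left out. CD276 and CD47 were the added ones. It became 4 with at least 10 counts in every library (CD276 added, adjusted p 0.0466), once length and GC content had offsets (CD47 added, 0.0497) and with the block alone. The added 1 among the higher was NT5E.

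Over all genes, 2056 higher and 2734 lower became 5594 and 5459 under the MA-plot-based model, which treats replicates as 1 pool, 0 and 0 at more than 2-fold with an adjusted p under 0.001, and 806 and 1523 at more than 2-fold with an adjusted p under 0.05. The threshold of 2-fold and 0.001 was applied here to edgeR's adjusted p. The paper applied it to DEGseq and reports genes upregulated in PC9OR by it, so the 0 and 0 do not repeat its result. With the block and length offsets 3111 were higher. With 1 library left out the ranges were 540 to 3984 higher and 1232 to 3978 lower. For the related lists, 15 higher and 28 lower became 43 and 54, 0 and 0, and 6 and 16 in the same order of settings, with ranges of 3 to 28 and 14 to 37.

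Replicate numbers are shared between the lines by label only. Deviations of same-numbered libraries correlated at 0.055 across genes, so the numbers were not taken as pairs. With the replicate number as a block, 2593 genes were higher and 2946 lower, and 1 and 4 of the 8 genes. PDCD1LG2 was then not called (adjusted p 0.0563), and CD276 (0.0152) and CD47 (0.0035) were. The cause of these shifts was not tested. With 2 libraries a line and a spread that differs between the lines, all 4 calls among the 8 genes were lost without either PC9OR library, and depth limits ENTPD1 and LGALS9.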

Other observations

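Other ligands through which tumour cells meet immune cells moved in both directions. Of 32 such genes 16 were tested, 2 rose and 4 fell. Counts in this section stand beside 15.6% called higher and 20.8% lower over all tested genes. ICAM1, the adhesion ligand of T cell integrins, fell from 85.3 and 70.3 CPM in PC9 to 20.9 and 22.9 CPM in PC9OR (log2 fold change -1.83, edgeR adjusted p 0.0047). CEACAM5, the carcinoembryonic antigen, fell by 2.83 (0.0063) and MICB, a stress ligand of the activating receptor NKG2D, by 0.60 (0.0180). ULBP1, another NKG2D ligand, rose by 1.83 (0.0315) from 0.341 and 0.312 CPM to 1.09 and 1.25 CPM, a low level. SPP1, which encodes osteopontin, rose by 0.50 (0.0460). HLA-E, chosen after its values were seen, fell by 0.49 (0.0236). FASLG, CD40, FGL1, HLA-G and IDO2 had 0 counts in every library.

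Of the 3 surface proteins that protect cells from complement, CD55 fell from 21.6 and 22.7 CPM to 5.12 and 3.50 CPM (log2 fold change -2.36, adjusted p 0.0059) and CD59 fell by 0.50 (0.0255). CD46, chosen after its values were seen, was at 249 and 299 CPM and 262 and 273 CPM, with a log2 fold change of -0.04 (0.844). Of 15 checkpoint receptors of immune cells, PDCD1, CTLA4, TIGIT, CD160, ICOS and KLRK1 had 0 counts in every library. PVRIG, named for being the only one that passed the filter on low counts, stayed between 0.213 and 0.469 CPM.

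The marker lists gave 5 of 8 epithelial genes higher and 2 lower. KRT8 went from 1585 and 1879 CPM to 4189 and 4226 CPM (log2 fold change 1.28, adjusted p 0.0057), and KRT18 rose by 1.13 (0.0065). Of 15 immune genes 5 were tested and CD68, a lysosomal protein that epithelial lines can also express, fell by 1.10 (0.0158). LYZ, the second most abundant, was at -1.25 (0.107). Of 10 fibroblast and endothelial genes 5 were tested and CDH5, a cadherin of endothelium, fell from 34.7 and 23.96 CPM to 5.06 and 4.78 CPM (-2.57, 0.0053). PECAM1, the next in that list, was at 55.5 and 0 expected counts in PC9 and 0 and 13.8 in PC9OR, so its replicates differed within each line. The transcript length that the deposited tables give for CD274 differed among libraries, at 2432 and 2177 bases in PC9 and 2699 and 2331 bases in PC9OR, and overlapped between the lines.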
